A study of Mus musculus with 9 samples.

Results

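The genes described here encode core components of ER-associated degradation (ERAD): *Derl1*, *Derl2*, *Derl3*, *Edem1*, *Edem2*, *Sel1l*, *Syvn1*, *Os9* and *Herpud1*. These 9 genes were taken by symbol from tables of group means. The table that pairs LacZ with Nrf1 lists 14819 genes, the one that pairs LacZ with Nrf2 lists 14986, and the direct table of both factors lists 14908. Of the 9 genes, 7 had a mean of 10 or more in a group and entered the comparisons. *Derl3* was listed at or near 0, and *Derl2* had no row in any of the tables.

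ERAD removes proteins that fail to fold in the endoplasmic reticulum (ER). Lectins and mannosidase-like proteins in the ER lumen recognise a misfolded glycoprotein, a membrane complex built around the ubiquitin ligase Hrd1 moves and ubiquitinates it, the ATPase p97 pulls it into the cytosol, and the proteasome degrades it. Several of these genes are textbook targets of the unfolded protein response, the program that a cell turns on when unfolded proteins accumulate in the ER. The pathway also acts on Nrf1, which is made as an ER membrane glycoprotein and is extracted by p97 before it is degraded or processed into an active transcription factor.

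The cells were primary neonatal rat ventricular cardiomyocytes (NRVMs), isolated from Sprague-Dawley rats 1 or 2 days old and kept in culture for 48 h before infection. They were infected with adenoviruses at a multiplicity of infection of 50 for LacZ (a bacterial enzyme, the control), mouse Nrf1 or mouse Nrf2, each driven by the CMV promoter in a vector that also carries a red fluorescent protein. The labels give 9 libraries, 3 in each of 3 groups, and nothing in them says that the libraries of a group came from separate animals or cultures. They name mouse as the organism, while the cell type, strain and genome build are those of rat. Because the 3 deposited tables hold 1 mean per gene and group, no value per library and no SD can be given. The p-values of the authors' own comparisons were not used, so no test is given and every difference below is a description of 2 group means.

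The values are mean normalized read counts that the authors computed for each pair of groups, and levels from different tables were kept apart. The means of a group summed to between 8894782 and 10407511, and reads per library are not given in the sources used here. The lowest means recur at 3 steps per group, read here as 1 read in each library, which puts the deepest library of a group at 1.18 to 1.21 times its shallowest. *Nfe2l2*, the gene of Nrf2, was at 3475 in LacZ and 75066 in Nrf2 samples. *Nfe2l1*, which encodes Nrf1, had no row in any of the tables, so the Nrf1 label was not checked in this way. All 8 cardiomyocyte markers were listed above 0 in every group, and their summed mean was 138747 in LacZ and 133946 in Nrf1 samples. With Nrf1, 2 of the 8 were at least 1.5-fold higher and 3 were lower (median log2 ratio -0.28). With Nrf2 the summed mean was 148152 in LacZ and 158387 in Nrf2 samples, and none of the 8 was past 1.5-fold (median 0.22).

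In Nrf1 samples the core ERAD genes did not move in a single direction. Of the 7 genes, 4 had a lower mean than in LacZ samples (*Sel1l*, *Herpud1*, *Os9* and *Edem1*) and 3 had a higher mean (*Edem2*, *Derl1* and *Syvn1*). At a fold of at least 1.5, 2 genes were lower and 0 were higher. Among all 11453 genes whose mean reached 10 in one of the groups, called all genes here, 18.1% were lower and 11.9% were higher by that measure. At a lower limit, a log2 ratio of 0.32 or more in size, 4 of the 7 genes were lower and 2 were higher, beside 28.2% and 24.6% of all genes. The median log2 ratio of the 7 genes was -0.33, and that of all genes was 0.0018.

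Markers of other cells in the culture moved in the same samples. All 10 fibroblast markers were at least 1.5-fold lower in Nrf1 than in LacZ samples, and their summed mean was 30843 in Nrf1 and 118719 in LacZ samples. With Nrf2, 8 of the 10 were lower by that measure, and the summed mean was 67492 in Nrf2 and 126784 in LacZ samples. These sums rest mostly on *Col1a1*, at 86236 in LacZ and 22603 in Nrf1 samples, and *Col3a1*, at 24974 and 5935. The median log2 ratio of the 10 was -1.82 with Nrf1 and -0.97 with Nrf2. None of the 10 was listed at 0 in any group. Fibroblasts secrete much protein through the ER, and their part in the levels of the ERAD genes was not tested. In RNA of a whole culture, fewer cells of a type and less RNA per cell cannot be told apart. Of 7 endothelial markers, 5 were lower with Nrf1 and 4 with Nrf2, and their summed mean was 0.720 and 0.710 of the LacZ value. Of 8 leukocyte markers, 7 had a mean of at least 10, of which 6 were lower with Nrf1 and 6 with Nrf2, and the summed mean of the list was 0.567 and 0.594 of the LacZ value. The plasma cell markers did not move in a single direction. Of the 5 in the tables, 4 had a mean of at least 10. With Nrf1, 3 of the 4 were lower and 1 was higher (median log2 ratio -0.99), and with Nrf2, 3 were higher and 0 were lower (median 1.01). Their summed mean was 0.594 and 0.876 of the LacZ value, a sum that rests mostly on *Sdc1*, a surface proteoglycan also made by other cells, at 849 in LacZ and 498 in Nrf1 samples.

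*Edem1*, *Edem2* and *Os9* act in the ER lumen. *Edem1* and *Edem2* encode mannosidase-like proteins that trim the glycans of misfolded glycoproteins, and *Os9* encodes a lectin that binds the trimmed glycans and hands the protein to the Hrd1 complex. *Edem1* had a mean of 1505 in LacZ and 1197 in Nrf1 samples, a log2 ratio of -0.33 with a 95% counting interval of -0.40 to -0.26. These intervals were computed from the fewest reads that the means allow and cover counting error only, so they say nothing of the spread between libraries. *Edem2*, which removes the first mannose, went the other way, with a mean of 190 in LacZ and 250.5 in Nrf1 samples (log2 ratio 0.40, interval 0.23 to 0.57). The ratio of *Edem1* to *Edem2* reads was 7.93 in LacZ and 4.78 in Nrf1 samples, which was a log2 difference of -0.73. This ratio depends on the lengths of both transcripts, and its change between groups does not.

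*Os9* had a mean of 1085 in LacZ and 733 in Nrf1 samples. Its fold of 1.48 was the one just outside the 1.5-fold limit (log2 ratio -0.57, interval -0.65 to -0.48). The gene just inside was *Herpud1*, with a fold of 1.51. When the ratios were re-centred on the median of well expressed genes (those whose mean reached 100), which had a log2 ratio of 0.05, *Os9* was at -0.62 and passed the limit as well. Its position therefore turned on a scaling choice that is smaller than its counting interval.

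*Syvn1* and *Sel1l* encode the core of the ligase complex. *Syvn1* encodes Hrd1 itself, and Sel1l is the partner that stabilises Hrd1 and holds the lumenal receptors next to it. *Sel1l* had the lowest log2 ratio of the 7 genes with Nrf1, -0.74 (interval -0.82 to -0.65), from a mean of 1160 in LacZ to 697 in Nrf1 samples. A fold of 1.66 lower was not rare in this table, where 14.2% of all genes had a lower ratio. *Syvn1* had a mean of 376 in LacZ and 454 in Nrf1 samples (log2 ratio 0.27, interval 0.15 to 0.39). The 2 partners were thus on opposite sides of LacZ. The number of *Sel1l* reads per *Syvn1* read was 3.08 in LacZ and 1.53 in Nrf1 samples, a change of -50.3%.

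The derlins are multi-pass membrane proteins related to rhomboid proteases that help to move substrates across the ER membrane, and Herpud1 is an ER membrane protein with a ubiquitin-like domain that binds Hrd1. *Derl1* had a mean of 1384 in LacZ and 1766 in Nrf1 samples, with a log2 ratio of 0.35 (interval 0.29 to 0.41). *Derl3*, known mainly from secretory tissues, was listed at 0 in LacZ and at 0.297 in Nrf1 samples, which is the step of 1 read in 1 library. It had no row in the table of Nrf2 and LacZ. Both values lie under the mean of 1.12 that 3 reads would give in LacZ samples, so no fold is given. *Herpud1*, one of the genes that responds most to ER stress, had a mean of 1292 in LacZ and 856 in Nrf1 samples, a log2 ratio of -0.60 (interval -0.67 to -0.52).

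**Figure D1:**
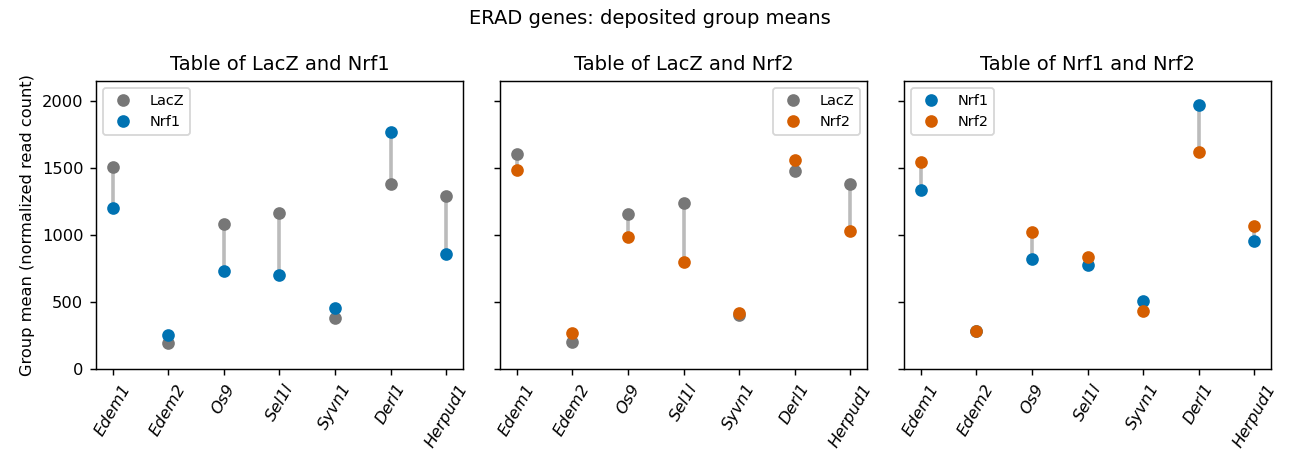
Group means of 7 core ERAD genes, as normalized read counts on a linear axis from 0, in the 3 deposited tables, with LacZ in grey, Nrf1 in blue and Nrf2 in orange. *Sel1l*, *Os9*, *Herpud1* and *Edem1* had their highest mean in LacZ samples, and *Derl1* had its highest mean in Nrf1 samples (1766 against 1384 in LacZ). Levels are not comparable between genes, since they are not divided by transcript length.

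With Nrf2 the same 4 genes had a lower mean than in LacZ samples and the same 3 had a higher mean, and the ratios lay nearer to 0 for 6 of the 7. The comparisons with LacZ share their control libraries, so a like order of genes is not independent evidence. At a fold of at least 1.5, 1 gene was lower and 0 were higher, beside 10.9% and 9.78% of all 11630 genes. At the lower limit, 2 genes were lower and 1 was higher, beside 21.4% and 19.8% of all genes. The median log2 ratio of the 7 genes was -0.11, and that of all genes was -0.0032.

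*Sel1l* was again the lowest, with a mean of 1239 in LacZ and 800.1 in Nrf2 samples (log2 ratio -0.63, interval -0.71 to -0.55), and 9.72% of all genes had a lower ratio. *Herpud1* had a mean of 1380 in LacZ and 1029 in Nrf2 samples (log2 ratio -0.42, interval -0.49 to -0.35). *Os9* had a mean of 1159 in LacZ and 981 in Nrf2 samples, a log2 ratio of -0.24. These ERAD components thus kept their side of LacZ under both factors, with *Os9* inside the lower limit for Nrf2.

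*Edem2* had nearly the same ratio with both factors, at 203 in LacZ and 269 in Nrf2 samples (log2 ratio 0.41, interval 0.25 to 0.57). The other 3 genes were close to LacZ. *Edem1* had a mean of 1607 in LacZ and 1489 in Nrf2 samples (log2 ratio -0.11), *Derl1* 1478 and 1558 (0.08), and *Syvn1* 402 and 417 (0.05). The sign of the last pair depended on the scaling: with the means divided by the column sums, *Derl1* was at -0.0005 and *Syvn1* at -0.02. The counting interval of *Syvn1*, -0.07 to 0.17, also included 0.

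The direct table sets Nrf2 beside Nrf1 samples without LacZ. None of the 7 genes (0 of 7) reached the lower limit in it, and *Os9* was just inside at a log2 ratio of 0.319. This turned on the scaling. *Os9* was past the limit when re-centred on the median of well expressed genes (0.352) and when its ratio was derived through LacZ (0.327). Of all 11514 genes, 12.3% were at least 1.5-fold higher and 5.16% at least 1.5-fold lower in Nrf2 than in Nrf1 samples, and 22.3% and 16.8% passed the lower limit. The median log2 ratio of the 7 genes was 0.10, and that of all genes was -0.0046.

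The largest difference was that of *Os9*, with a mean of 817 in Nrf1 and 1019 in Nrf2 samples (log2 ratio 0.32, interval 0.24 to 0.40). *Edem1* was also higher in Nrf2 samples, at 1547 against 1336 (log2 ratio 0.21), and so was *Herpud1*, at 1069 against 955 (0.16). Each of these 3 genes therefore had its lowest mean with Nrf1, an intermediate mean with Nrf2 and its highest mean with LacZ. *Derl1* and *Syvn1* had their highest mean with Nrf1, and the order of Nrf2 and LacZ depended on the scaling, as given above. *Derl1* had a mean of 1970 in Nrf1 and 1619 in Nrf2 samples (log2 ratio -0.28, interval -0.34 to -0.23), and *Syvn1* had 507 and 433 (log2 ratio -0.23, interval -0.34 to -0.11).

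*Sel1l* and *Edem2* hardly separated the factors. *Sel1l* had a mean of 777 in Nrf1 and 831 in Nrf2 samples, a log2 ratio of 0.10 with an interval of 0.01 to 0.18. *Edem2* had a mean of 279 in Nrf1 and 280.0 in Nrf2 samples, a log2 ratio of 0.0029 with an interval of -0.14 to 0.15. For *Edem2* a difference of that size was not detectable at this depth.

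**Figure D2:**
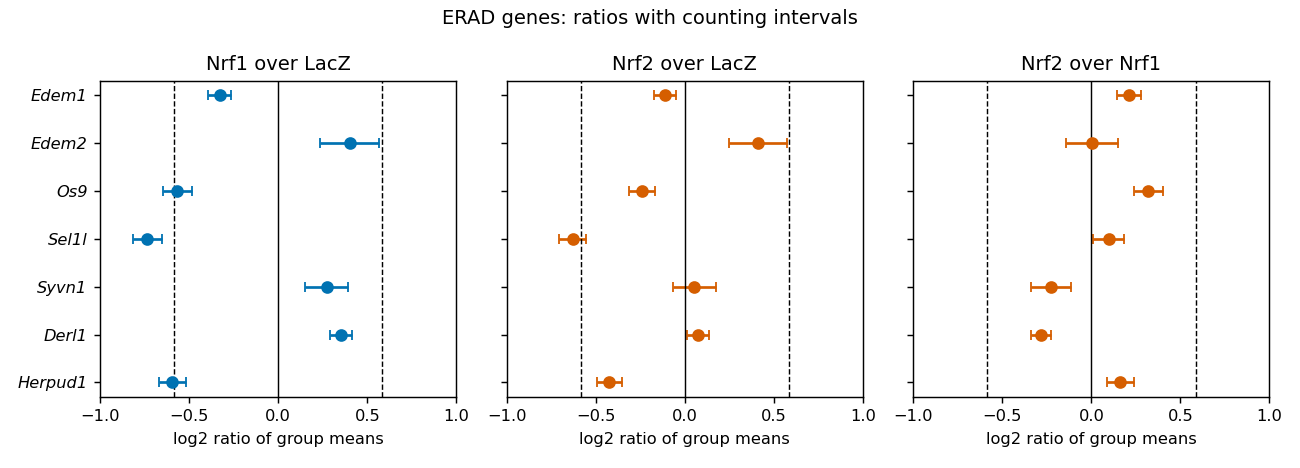
Log2 ratio of the group means of 7 core ERAD genes in each comparison (horizontal axis), with 95% counting intervals as bars that leave out the spread between libraries, and dashed lines at 1.5-fold. With Nrf1, *Sel1l* (-0.74) and *Herpud1* (-0.60) lie beyond the lower line and *Os9* (-0.57) just inside it, while in Nrf2 over Nrf1 all 7 genes lie between -0.28 and 0.32.

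The rest of the pathway was set beside these genes as a list of 66 other ERAD genes in 5 roles, of which 63 were in the tables. In Nrf1 samples 17 of the 63 were at least 1.5-fold higher than in LacZ samples and 1 was lower. The lower one was *Foxred2*, an ER flavoprotein, with a mean of 31.2 in LacZ and 19.9 in Nrf1 samples. These are shares of 27.0% and 1.59%, beside 11.9% and 18.1% of all genes. Re-centred on the median of well expressed genes, 15 were higher and 1 was lower, beside 10.2% and 19.7% of all genes. With means divided by column sums 14 were higher and 1 was lower, beside 10.1% and 19.9%. The median log2 ratio of the 63 was 0.32, while that of the 7 core genes was -0.33. With Nrf2, 6 of the 63 were higher and 0 were lower, with a median of 0.15. The share that was higher, 9.52%, was close to the 9.78% of all genes, of which 10.9% were lower. With means divided by column sums 5 were higher with Nrf2, beside 8.28% of all genes.

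Of the 8 genes for extraction by p97, 7 were at least 1.5-fold higher with Nrf1, beside 11.9% of all genes. The median log2 ratio of the 8 was 0.85. Of the 7, *Ubxn1* (0.60) was not past 1.5-fold under either other scaling. *Faf1* (0.64) was past it when re-centred but not with means divided by column sums. *Vcp*, which encodes p97, had a mean of 7952 in LacZ and 15544 in Nrf1 samples (log2 ratio 0.97). Its adaptors *Ufd1* and *Nploc4*, which bind ubiquitinated substrates, had log2 ratios of 0.95 and 0.76. *Ubxn2a*, another p97 cofactor, had the largest ratio of this list (1.41) and *Ubxn6* the smallest (0.34). With Nrf2, 2 of the 8 were higher at 1.5-fold, *Vcp* (0.61) and *Nsfl1c* (0.76), beside 9.78% of all genes. *Vcp* was not past 1.5-fold with means divided by column sums. *Ufd1* was at 0.09 and *Nploc4* at 0.16. In the direct table *Ufd1* had a mean of 2382 in Nrf1 and 1304 in Nrf2 samples.

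Of 16 membrane adaptors, 4 were at least 1.5-fold higher and 0 were lower with Nrf1, with a median log2 ratio of 0.36. They were *Ubxn4*, an ER anchor for p97 with the largest ratio of the list (1.20), *Ubxn8* (0.68), *Selenok* (0.65) and *Bcap31* (0.61). Of these, *Bcap31* was not past 1.5-fold under either other scaling. *Rhbdd1* had the smallest ratio of the list (-0.10). With Nrf2, *Ubxn8* (1.03, the largest) and *Bcap31* (0.82) were past 1.5-fold, and *Selenos* was the lowest (-0.23). Of 19 genes for cytosolic handling, 5 were higher and 0 were lower with Nrf1, with a median of 0.32. Among the well expressed ones, *Ube4a*, a ubiquitin chain elongation factor, was the highest (1.03) and *Ubl4a* the lowest (-0.29). With Nrf2, 2 of the 19 were higher, with *Usp13* the highest (0.72) among genes at that level.

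The upstream roles lay closer to LacZ. Of 13 other ER ubiquitin ligases and ubiquitin-conjugating enzymes in the tables, 1 was higher with Nrf1, *Tmem129*, a ligase of the ER membrane (log2 ratio 0.67), and *Rnf103* was the lowest of the well expressed ones (-0.10). With Nrf2 none of the 13 was past 1.5-fold in either direction, from -0.17 for *Ube2g2* to 0.39 for *Rnf103* among genes at that level. Of 7 genes for lumenal recognition, 0 were higher and 1 was lower with Nrf1, and at that level they ran from -0.35 for the folding sensor *Uggt1* to 0.40 for *Edem3*. *Edem3* belongs to the same family as *Edem1* and *Edem2* and was on the side of *Edem2*. With Nrf2 none of the 7 was past 1.5-fold, from -0.42 for *Man1b1* to 0.24 for *Erlec1* among the well expressed ones.

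The proteasome, which takes up the extracted proteins, had 31 of 31 listed subunit genes at least 1.5-fold higher with Nrf1 and 7 of 31 with Nrf2, with median log2 ratios of 1.12 and 0.40. None of the 7 core ERAD genes reached the lowest ratio of these subunits with Nrf1, 0.77.

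**Figure D3:**
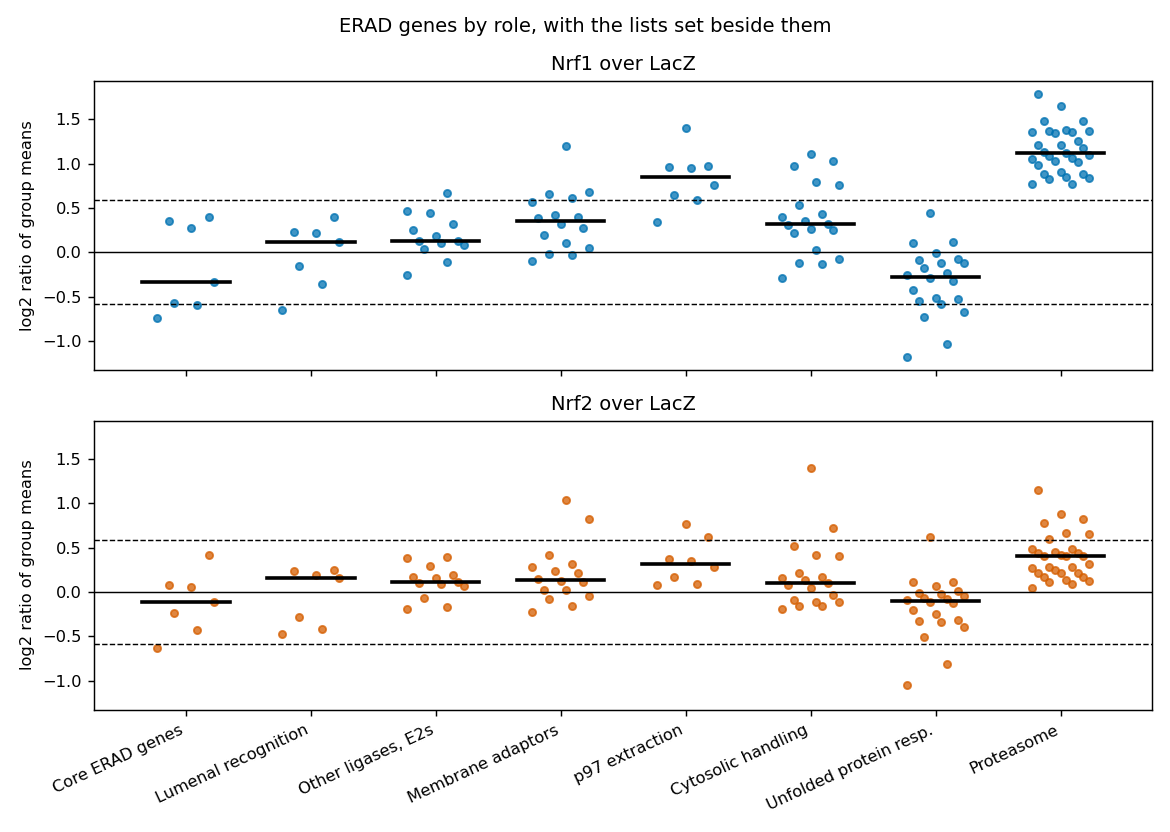
Log2 ratio of the group means (vertical axis) for every listed gene whose mean reached 10 in one of the groups, by role, with Nrf1 over LacZ above and Nrf2 over LacZ below; black bars are list medians and dashed lines mark 1.5-fold. With Nrf1 the medians run from -0.33 for the 7 core ERAD genes to 0.85 for extraction by p97 and 1.12 for the proteasome, and with Nrf2 from -0.11 to 0.31 and 0.40.

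Genes of the unfolded protein response were set beside the core genes because several core genes belong to it. Of 22 genes, 0 were at least 1.5-fold higher and 4 were lower with Nrf1, *Trib3*, *Ddit3*, *Sdf2l1* and *Dnajb11*, and 19 of the 22 had a log2 ratio below 0. Their median was -0.28, and that of all genes was 0.0018. The share that was lower was 18.2%, beside 18.1% of all genes. With the ratios re-centred on the median gene 6 of the 22 were lower, a share of 27.3% beside 19.7% of all genes, and with means divided by column sums 6 were lower, beside 19.9%. The lowest was *Trib3*, a target of the stress factor Atf4, with a mean of 384 in LacZ and 170 in Nrf1 samples (log2 ratio -1.18), and the highest was *Dnajb9*, an ER co-chaperone, with 960.4 and 1304 (0.44). *Hspa5*, which encodes the main ER chaperone BiP, had a mean of 11646 in LacZ and 12649 in Nrf1 samples (0.12), and *Xbp1*, which encodes a transcription factor that activates ERAD genes, had 1202 and 958 (-0.33).

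With Nrf2, 2 of the 22 genes were lower, *Trib3* (-1.05) and *Ddit3* (-0.81), and 1 was higher, *Dnajb9* (0.61), which was not past 1.5-fold with means divided by column sums. These are shares of 9.09% and 4.55%, beside 10.9% and 9.78% of all genes. The median was -0.10, and that of all genes was -0.0032. *Xbp1* was at -0.31 and *Hspa5* at 0.11.

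For each core gene, the gene with the most similar pair of log2 ratios over LacZ was looked up among 82 other ERAD and unfolded protein response genes whose mean reached 100 in both comparisons with LacZ, by Euclidean distance over 3 groups and their shared LacZ libraries. At this limit the 4 genes with a lower mean were nearest to genes of the unfolded protein response. Of the 63 other ERAD genes with a mean of at least 10, 12 had a log2 ratio below 0 with Nrf1 and 17 with Nrf2. For the 22 genes of the unfolded protein response these counts were 19 and 17. With Nrf1, 10 of the 22 passed the lower limit downwards and 2 of the 63 did, beside 28.2% of all genes. The lookup therefore cannot tell a shared pattern from the make-up of the lists. *Herpud1* was nearest to *Pdia4* (-0.58 with Nrf1 and -0.39 with Nrf2), *Os9* to *Dnajc3* (-0.52 and -0.20), and *Edem1* to *Hyou1* (-0.29 and -0.08). *Sel1l* was nearest to *Atf4* (-0.55 and -0.51), at a distance of 0.22. With the limit at a mean of 10, an alternative chosen after the data were seen that gave 85 candidates, *Sel1l* was instead nearest to *Foxred2*, a gene of lumenal recognition (-0.65 and -0.48, distance 0.17), and the nearest gene of the other 6 was the same. The 3 genes with a higher mean were nearest to genes of other roles, *Derl1* to *Ubxn6* (0.34 and 0.07), *Syvn1* to *Usp19* (0.32 and 0.04) and *Edem2* to *Rnf139* (0.47 and 0.38).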

How the data were processed

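NRVM RNA was sequenced in 9 libraries, and groups were taken from the sample titles. Per the labels and the study's methods, the authors ran FastQC 0.11.4, aligned the reads to Rnor_6.0 with HISAT2 2.0.4, removed duplicates with SAMtools 0.1.18, counted them with featureCounts 1.6.0 and compared groups with edgeR 3.20.5. The signal in the 3 deposited tables is the mean of normalized counts per group, scaled by the authors separately for each pair. Fold-change, p-value and adjusted p-value columns of the authors' own comparisons were not used, and there were 0 columns of single samples.

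Log2 ratios of the means were computed without a pseudocount in Python 3.11.15 with pandas 2.3.3, and genes whose mean reached 10 in one of the groups were counted at 1.5-fold. The counting intervals (exact Clopper-Pearson, scipy 1.17.1) used the fewest reads allowed by the steps among the lowest means. Calls and intervals were tested on simulated data with counting error only, so not against a spread between libraries. Reads carry no molecular identifiers, and the depth per library is unknown.

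The core genes, the other gene lists and the 5 marker lists were chosen with earlier results of these data known. Genes named were the core genes, the nearest gene to each, the highest and lowest of each list with a mean of at least 100, and others chosen after their values were seen. A name that this rule gives is not reported here. The alternatives were other scalings, filters, folds, a pseudocount of 10 and ratios derived through LacZ. Coordinates and sequences of rat genes were not used here.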

Additional observations from a re-analysis of the deposited data

How the results depend on the processing

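No paired analysis was possible because each table gives 1 mean per group and nothing per library. For the same reason no replicate could be left out. The number of genes past the limit turned mainly on the fold required. The number at the lower limit (a log2 ratio of 0.322 in size) follows for Nrf1, Nrf2 and the direct comparison, in this order. It was 6, 3 and 0 of 7 core genes, and 33, 16 and 19 of 63 other ERAD genes. It was 11, 7 and 3 of 22 genes of the unfolded protein response. For Nrf2 over LacZ it was also 16 of 31 proteasome genes. The other ERAD genes split into 31 higher and 2 lower, 14 and 2, and 2 and 17. Those of the unfolded protein response split into 1 and 10, 1 and 6, and 3 and 0. Beside these, the shares of all genes were 24.6% and 28.2%, 19.8% and 21.4%, and 22.3% and 16.8%. At 2-fold the number was 0 core genes in each, and 4, 2 and 1 other ERAD genes. It was 2, 1 and 0 genes of the unfolded protein response, and 1 (Nrf2 over LacZ) and 6 (Nrf2 over Nrf1) proteasome genes. No share of all genes was computed at 2-fold. Re-centring on the median gene left 4 of 7 other ERAD genes past 1.5-fold in Nrf2 over Nrf1. Without a filter on low means, 1 core gene passed in Nrf2 over Nrf1, *Derl3*, which is listed at 0 with Nrf2. In Nrf1 over LacZ 3 core genes then passed instead of 2, the added one being *Derl3*, which is listed at 0 in LacZ. For the core genes, 64 of 70 ratios under another scaling or a pseudocount stayed within their counting interval on the same side of 0, and 6 left it or crossed 0, all with means divided by column sums. None of the ratios past 1.5-fold changed sign. Group means without a spread limit every statement to the size of a difference.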
